A study of Mus musculus with 2 samples.

Results

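The cells described here are 80 hepatocytes from 1 droplet library of mouse liver cells grown in expansion medium, picked for a high share of transcripts that mark the passage from G1 into S phase of the cell cycle. They were chosen from the 1191 cells of that library that passed the cell filter, out of 2436 in both libraries of the study. Cells with transcripts of at least 3 of 19 G2/M genes (Mki67, Top2a, Ccnb1, Ccnb2, Cdk1, Ccna2, Cenpe, Cenpf, Aurka, Aurkb, Bub1, Plk1, Ube2c, Birc5, Tpx2, Kif11, Nusap1, Cdc20 and Hmmr) were first set aside. The remaining 798 cells were ranked by the share of their UMIs (unique molecular identifiers, each counting 1 captured transcript) that came from 16 G1/S markers, and the top 10% were taken. They are called G1/S cells below, the 718 cells ranked under them are called other cells, and the 393 cells set aside are called G2/M cells.

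The study cultured primary hepatocytes of C57BL/6 mice in growth-factor-reduced matrigel, a basement membrane gel, and made 1 library per medium with the 10x Genomics Chromium system. Expansion medium held 3 uM of the GSK3 inhibitor CHIR99021, 100 ng/mL TNFa, 25 ng/mL EGF and 50 ng/mL HGF. Induction medium held the same EGF and HGF and 3 uM dexamethasone, a glucocorticoid, with neither CHIR99021 nor TNFa. Both shared 10 uM of the ROCK inhibitor Y27632, 1 uM of the TGF-beta receptor inhibitor A83-01, the supplements B27 (2%) and N2 (1%), N-acetylcysteine at 1.25 mM and nicotinamide at 100 mM. The labels give no number of animals, culture time or passage. With 1 library per medium there is no replicate and no test. A ratio of at least 1.5 between summed levels serves as the rule of size, and all intervals are exact 95% intervals that cover counting error only.

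Before a cell copies its DNA, the origin recognition complex with Cdc6 and Cdt1 loads the ring of Mcm proteins onto origins, a step called licensing. The transcription factors of the E2F family, released from the retinoblastoma protein by cyclin D and cyclin E kinases, drive the genes for licensing, for the polymerases and for the supply of nucleotides. Genes for mitosis follow later and are held back in G1 by a repressor complex that reads a promoter element known as CHR. Hepatocytes rarely divide in the resting liver and enter this program after injury or in culture with growth factors.

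E2F-type motifs were looked for in the promoters of these genes, and a few are shown because they belong to genes that ranked the cells or that were high in them without having been used for the ranking. The window ran from 250 bases before to 50 after each RefSeq transcription start on GRCm38.p6. The spellings searched on both strands were TTTCCCGC, TTTCGCGC, TTTGCCGC and TTTGGCGC. Promoters were found for 14 of the 16 markers (the others are Mcm4 and Gins2), and 6 of them held such a motif, or 42.9%, as did 16 of 41 S phase genes outside the rule (39%), against 704 of 27025 genes of the table (2.6%). Each line reads 5′ to 3′ on the gene's own strand, with the motif in capitals and 60 bases in all.
Mcm5, chr8:75109330-75109389, plus strand: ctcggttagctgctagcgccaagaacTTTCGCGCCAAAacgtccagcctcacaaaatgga
Mcm6, chr1:128359782-128359841, minus strand: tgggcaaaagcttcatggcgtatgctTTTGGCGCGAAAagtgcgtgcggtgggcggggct
Mcm6, chr1:128359719-128359778, minus strand: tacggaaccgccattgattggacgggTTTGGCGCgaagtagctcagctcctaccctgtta
Cdc6, chr11:98907987-98908046, plus strand: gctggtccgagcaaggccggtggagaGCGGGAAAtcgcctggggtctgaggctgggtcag
Uhrf1, chr17:56304102-56304161, plus strand: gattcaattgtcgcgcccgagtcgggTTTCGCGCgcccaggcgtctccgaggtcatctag
Pola1, chrX:93632260-93632319, minus strand: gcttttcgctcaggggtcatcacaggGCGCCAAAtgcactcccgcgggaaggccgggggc
In Mcm5 and in the first Mcm6 stretch a match on each strand overlaps, so the capitals there cover both. The motif begins 153 bases before the start site in Mcm5, 110 and 47 bases before it in Mcm6, 138 in Cdc6, 185 in Uhrf1 and 138 in Pola1. The Uhrf1 stretch lies inside the gene by the GENCODE coordinates given below, so the RefSeq start used for it is downstream of that gene start. The CHR element TTTGAA, searched the same way, was in 1 of the 14 marker promoters (7.14%), against 20.2% of all genes. It was in 10 of the 41 S phase genes outside the rule (24.4%) and in 7 of 22 regulators of the G1 to S passage (31.8%). Of the 16 matched promoters of the 19 G2/M genes, 11 held it (68.8%). Promoters of hepatocyte secreted proteins held an E2F-type motif in 0 of 20 matched genes. These matches describe the letters in the window and are not measured binding.

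The expansion library held 1208 barcodes and 29545561 UMIs, with 4 barcodes also present in the induction library, none of them a G1/S cell. The filter of at least 500 genes and at most 25% mitochondrial UMIs left out 17 barcodes. G1/S cells held 5472 to 47488 UMIs with a median of 20082, other cells a median of 22007 and G2/M cells 26198. Detected genes were alike in G1/S and other cells, at medians of 3648 and 3648, and higher in G2/M cells at 4265. The median mitochondrial share was 6.91% in G1/S cells, 6.35% in other cells and 6.19% in G2/M cells. At least 8 of 10 hepatocyte markers were found in 79 of the 80 G1/S cells (98.8%) and in 714 of the 718 other cells (99.4%). Markers of other liver cell types gave summed levels that were low or alike in the classes. In CPM (UMIs scaled to a class total of 1000000), they were in G1/S, other and G2/M cells 1.76, 1.31 and 2.49 for Kupffer cells, with 8 of 10 markers at 0 in the library, and 62.6, 64.3 and 65.1 for endothelial cells. Stellate cell markers stood at 452, 457 and 390 CPM. Cholangiocyte markers, with Spp1 the most abundant, were higher than these, at 1408, 1527 and 1280 CPM. Erythroid markers stood at 4.68, 4.03 and 4.16 CPM. Lymphocyte markers stood at 1.17, 0.36 and 0.28 CPM, and neutrophil markers at 1.76, 0.71 and 0.55 CPM.

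The library held cells of both sexes, read from Xist and 4 Y-linked genes. Among G1/S cells 27 held Xist alone, 30 held Y-linked UMIs alone, 18 held both (22.5%) and 5 neither, while 151 of the 718 other cells (21.0%) and 26.97% of G2/M cells held both. Scrublet, a doublet caller, marked 4 cells of the library and none of the G1/S cells. That is far fewer than the cells with both Xist and Y-linked UMIs, and whether those are doublets was not tested. Values within the cells of each kind are given beside the results they touch.

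**Figure D1:**
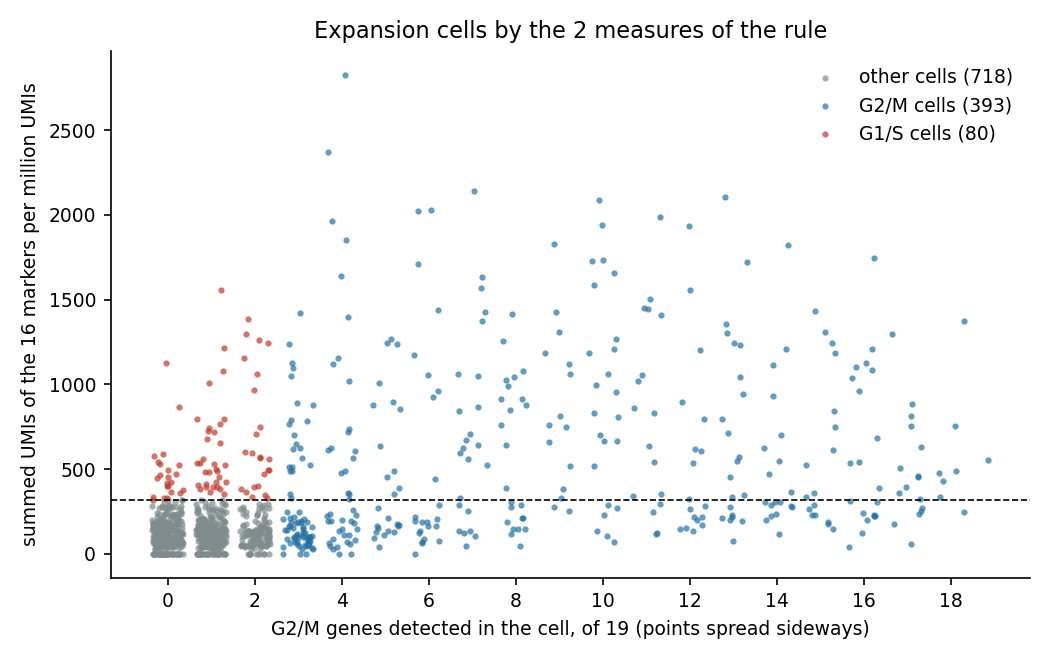
Each point is 1 of 1191 expansion cells, placed by the number of the 19 G2/M genes detected (horizontal) and by the summed share of the 16 G1/S markers in CPM (vertical). The dashed line is the lowest G1/S cell at 321 CPM. The red points sit above it at 0 to 2 G2/M genes and continue without a gap into the grey points below.

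The ranking values are given as a description, since they chose the cells. Marker levels of single G1/S cells ran from 321 to 1559 CPM with a median of 493, and those of other cells from 0 to 320 with a median of 103. The last cell inside had 5 marker UMIs among 15592 (320.7 CPM) and the first outside had 5 among 15633 (319.8 CPM). Of the cells within 10% of that limit, 8 lay inside and 13 outside, and within 25% the numbers were 21 and 45. The class is therefore a range cut from a continuous score and not a separated group. G1/S cells held 2 to 28 marker UMIs with a median of 11, from 2 to 14 different markers with a median of 8. At least 5 markers were found in 70 of 80 G1/S cells (87.5%, 78.2 to 93.8%), in 74 of 718 other cells (10.3%) and in 259 of 393 G2/M cells (65.9%).

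Licensing genes made up the helicase part of the marker list. Summed over cells, Mcm5 stood at 32.8 CPM in G1/S cells (24.8 to 42.6) and 3.26 in other cells, and Mcm4 at 40.4 and 4.03. Mcm6 stood at 46.8 and 7.71 CPM, Mcm3 at 32.2 and 4.15, Mcm7 at 39.2 and 8.48, and Mcm2 at 27.5 and 5.22. The loader Cdt1 was at 35.7 against 3.80 CPM, and its partner Cdc6 at 8.19 against 0.89. Of the nucleotide and repair genes on the list, Ung, which removes uracil from DNA, was at 43.3 and 5.52 CPM, and Dut, which clears the precursor dUTP, at 63.2 and 20.9. Rrm2, the regulated subunit of ribonucleotide reductase, was at 24.6 and 3.62 CPM, Rrm1 at 26.3 and 5.34, and the thymidylate synthase gene Tyms at 29.8 and 6.88. Pcna, the sliding clamp, was at 40.4 and 9.14 CPM, Gins2 at 21.7 and 5.10, and Slbp, which binds the histone mRNA stem loop, at 56.8 and 19.99. All 16 together gave 569 CPM (534 to 606) in G1/S cells, 114 (109 to 119) in other cells and 540 in G2/M cells.

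**Figure D2:**
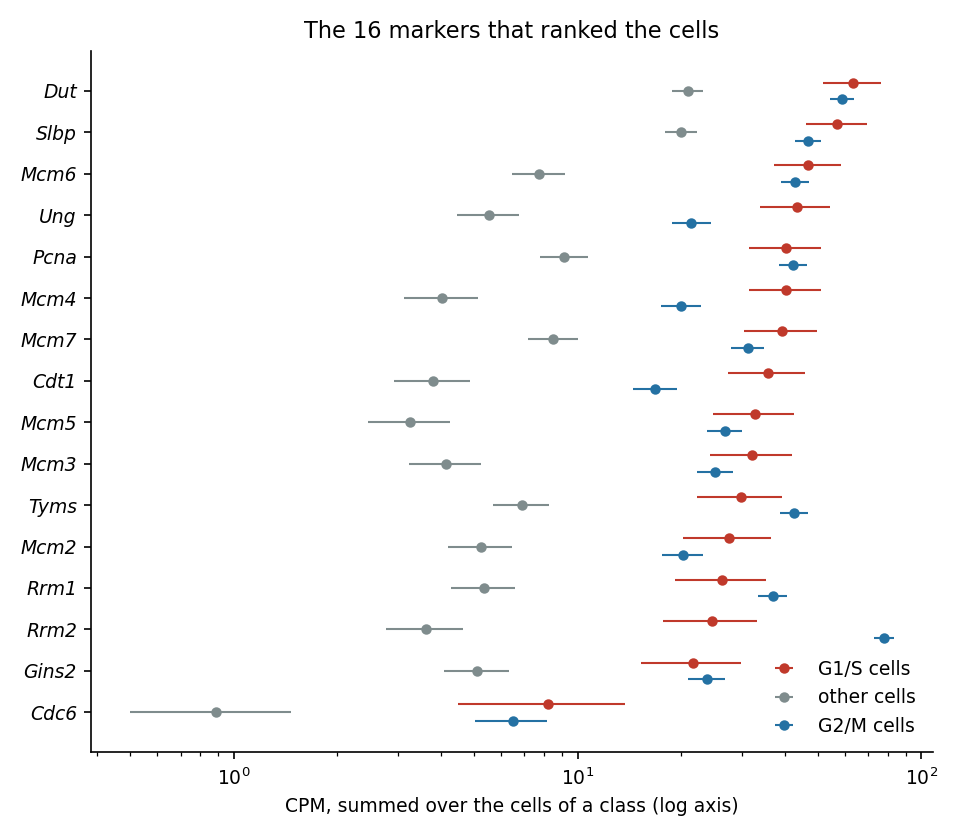
Level of each of the 16 markers in CPM (log axis), summed over the 80 G1/S, 718 other and 393 G2/M cells, with exact 95% Poisson intervals. Grey points lie to the left throughout, as the ranking fixed. Rrm2 has its highest level in G2/M cells (78.0 CPM against 24.6) and Cdt1 in G1/S cells (35.7 against 16.8).

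The name of the class calls it free of G2/M transcripts, and the data go against that in part. No G2/M gene was found in 23 of the 80 cells, 1 in 33 cells and 2 in 24 cells. The 19 G2/M genes summed to 59.1 CPM in G1/S cells, 33.1 in other cells and 816 in G2/M cells. Top2a, which untangles replicated DNA, was found in 24 of the 80 cells and stood at 19.9 CPM, against 4.69 in other cells and 111 in G2/M cells. Ube2c, a ubiquitin carrier of the anaphase complex, stood at 7.02 CPM in G1/S, 5.22 in other and 117 in G2/M cells. The mitotic kinase Plk1 had 0 UMIs in G1/S cells, which allows a level of up to 1.76 CPM. The class is thus low in G2/M transcripts and not without them.

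The cells were ranked again with 8 of the markers, and the other 8, held out of that ranking, were read out. All of them are markers of the rule, and both sets were scaled to the same UMI total of each cell. The values thus show whether the markers were high in the same cells and are no evidence from outside the rule. Ranked by the markers at odd places of the list, the top 80 cells held the other markers at 242 CPM and the rest of the cells at 74.4, a ratio of 3.25 (2.91 to 3.64). Ranked by those at even places, the levels were 229 and 50.1 CPM, a ratio of 4.57 (4.03 to 5.16). Both ratios lay below the 4.99 of all markers in the full ranking. Of the 80 cells, 62 were shared with the G1/S cells in the first ranking and 59 in the second.

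Genes of DNA replication that the rule did not use were higher as a group. On a list of 51 such genes, all 51 had a higher summed level in G1/S than in other cells by some amount. The share of all genes higher by any amount is not given here, and some of the 51 rest on few UMIs. Among the 39 of at least 5 CPM over the whole library, a filter that does not look at the classes, 38 were at least 1.5-fold higher and 0 were lower, with a median log2 ratio of 1.82. Over all 8408 genes of that level outside the rule, 10.6% were higher and 3.73% lower by the same size, with a median of 0.11. The list summed to 1020 CPM (973 to 1069) in G1/S cells and 279 (271 to 287) in other cells, a ratio of 3.65 (3.46 to 3.86), and to 1127 CPM in G2/M cells. The one gene of the 39 within 1.5-fold was Gins4, at 10.5 and 8.78 CPM.

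In single cells the list stood at 72.7 CPM in the lowest, 857 in the median and 3554 in the highest G1/S cell, and at 0, 246 and 1111 in other cells. The ranges overlapped, yet 77 of the 80 G1/S cells (96.2%, 89.4 to 99.2%) lay above the median of the other cells and 31 above the highest of them. G2/M cells ran from 54.9 to 4964 CPM with a median of 813. When each cell was thinned to 5000 UMIs, Hells was found in 37.5% of G1/S cells, 3.90% of other cells and 19.8% of G2/M cells, and without thinning in 67.5, 17.3 and 53.7%. No cell type that should lack these transcripts was measured in numbers here, so the share that free RNA gives was not tested.

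**Figure D3:**
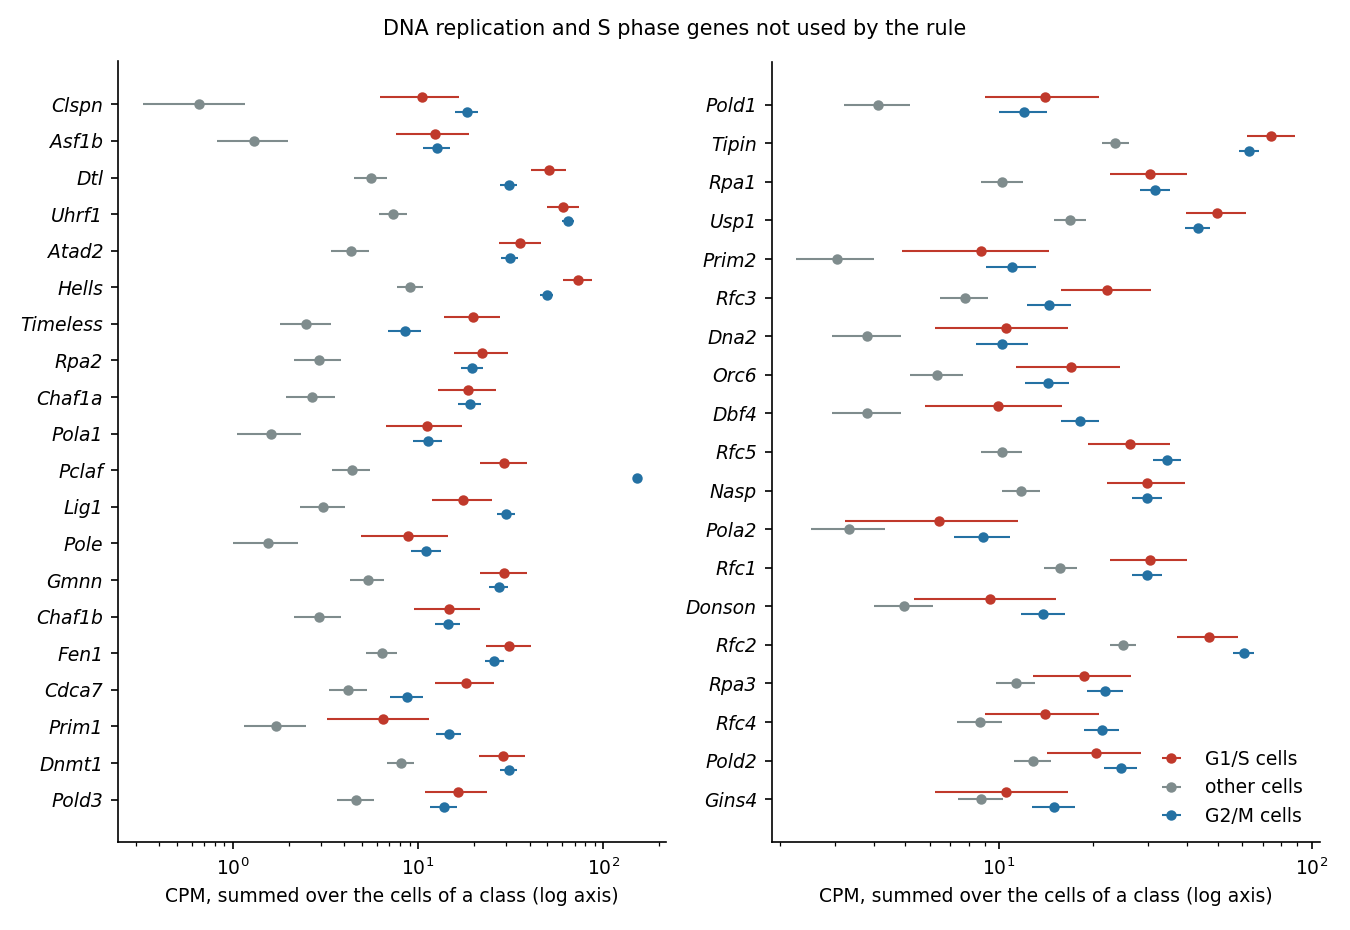
Levels in CPM (log axes) of the 39 DNA replication and S phase genes of at least 5 CPM that were not used to choose the cells, ordered by their ratio of G1/S over other cells, with exact 95% Poisson intervals. Red and blue points mostly overlap to the right of the grey ones. Pclaf stands apart with 153 CPM in G2/M and 29.3 in G1/S cells.

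Among the chromatin factors of replication, Hells, a remodeller (chr19:38930915-38971051), stood at 73.2 CPM in G1/S and 9.08 in other cells, a log2 ratio of 3.01. Uhrf1, which guides DNA methylation to new strands (chr17:56303321-56323486), stood at 60.9 and 7.36 CPM (3.05), Dnmt1, the methyltransferase it recruits, at 28.7 and 8.07, and the ATPase Atad2 at 35.7 and 4.33. The chromatin assembly genes Chaf1a and Asf1b were at 18.7 and 2.67 CPM and at 12.3 and 1.31. Genes that limit licensing to once per cycle were high as well. Dtl, which directs the destruction of Cdt1 (chr1:191537356-191575544), was at 50.9 against 5.58 CPM (3.19), and Gmnn, encoding the Cdt1 inhibitor geminin, at 29.3 against 5.34.

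At the replication fork, the single-strand binding subunit Rpa2 was at 22.2 against 2.91 CPM, the flap nuclease Fen1 at 31.0 against 6.41, and the ligase Lig1 at 17.6 against 3.09. The clamp loader genes differed less, with Rfc2 at 46.8 and 24.9 CPM and Rfc4 at 14.0 and 8.72. Polymerase genes of at least 5 CPM ran from Pola1 at 11.1 against 1.60 CPM to Pold2 at 20.5 against 12.8. Of the fork protection genes, Tipin was at 74.3 against 23.6 CPM, Timeless at 19.9 against 2.49 and Clspn at 10.5 against 0.65. Orc1 had 3 UMIs in G1/S cells and Mcm8 3, too few for more than a direction.

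Of 28 regulators of the G1 to S passage, 21 reached the level, with a median log2 ratio of 0.48. By at least 1.5-fold, 9 of them were higher and 1 lower, against 10.6% and 3.73% of all genes. Over 14 other settings of the class, the scaling and the cells used, 6 to 11 were higher and 0 to 4 lower. The activator E2f1 stood at 44.5 CPM in G1/S, 8.31 in other and 30.9 in G2/M cells. The cyclin E gene Ccne1 was at 22.2, 5.04 and 24.7 CPM and its kinase Cdk2 at 14.6, 4.69 and 12.5. Skp2, which targets the inhibitor p27, was at 16.97, 3.44 and 11.7 CPM, and the pocket protein gene Rbl1 at 12.9, 3.62 and 14.3. Ccne2 lay under the level with 9.36, 0.83 and 9.42 CPM. The cyclins that act earlier in G1 differed less, Ccnd1 at 849, 563 and 490 CPM and Ccnd2 at 234, 184 and 108. Ccnd1 just reached 1.5-fold over other cells at a log2 ratio of 0.59, and with scaling to the median gene it was 0.49. Ccnd2 was under other cells in the top 5% of cells, at a log2 ratio of -0.65. Myc was alike in the classes at 19.3, 20.2 and 17.6 CPM.

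The inhibitors of cyclin-dependent kinases did not share this direction. Cdkn2b, encoding p15, stood at 30.4 CPM in G1/S cells, 50.7 in other cells and 32.6 in G2/M cells, a log2 ratio over other cells of -0.74. It was within 1.5-fold at -0.27 when only cells with 0 G2/M genes were ranked, and at -0.50 in the top 20% of cells. Cdkn1a, encoding p21, was at 79.0, 113 and 89.4 CPM and Cdkn2a at 62.6, 85.3 and 53.6, both within 1.5-fold. Cdkn2c was on the other side at 22.2, 14.1 and 34.8 CPM. The 20 targets of p53 at the level had a median of -0.21. Of these, 0 were higher and 1 was lower, against 10.6% and 3.73% of all genes. This count depended on the settings, since 7 were lower with the top 5% of cells (median -0.37), 8 with thinning to 5000 UMIs (-0.34), 5 of 21 in cells with Xist alone (-0.23), and 0 with cells of 2 or more G2/M genes dropped (-0.12).

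Nucleotide synthesis genes were higher in part, where 10.6% of all genes were higher and 3.73% lower. Of 28 at the level, 10 were at least 1.5-fold higher and 0 lower, with a median log2 ratio of 0.41, and over the other settings 6 to 13 were higher and 0 to 2 lower. The purine synthesis gene Pfas stood at 26.9 CPM in G1/S and 11.6 in other cells. The abundant Nme1 was on the other side within 1.5-fold, at 361 and 437 CPM. Thymidine kinase Tk1 was at 8.78 CPM in G1/S, 2.49 in other and 34.2 in G2/M cells. Among 14 DNA repair and replication stress genes 10 were higher and 0 lower, with a median of 0.81. In cells with Y-linked UMIs alone 5 of 13 were higher (0.49), and with thinning 6 of 13 (0.33). Topbp1, which activates the checkpoint kinase ATR at stalled forks, was at 48.0, 8.31 and 35.2 CPM, Etaa1, another ATR activator, at 23.4, 10.0 and 19.1, and Apex1 at 50.3, 35.1 and 51.1. Of 24 replication-dependent and variant histone genes 10 reached the level, 0 of them higher and 1 lower, with a median of 0.11. How well the library captured the replication-dependent ones was not tested. Hist1h2bc stood at 69.6, 143 and 119 CPM and the variant H2afz at 645, 467 and 1218.

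Against G2/M cells, the replication genes were at about the same level and the mitotic ones far lower. G2/M cells were not ranked by the markers, so the classes were chosen in different ways, and the low level of the 19 G2/M genes in G1/S cells is set by the rule. Of the 39 S phase genes 4 were at least 1.5-fold higher in G1/S cells and 6 lower, with a median log2 ratio of -0.02. Over all 8408 genes 4.39% were higher and 7.47% lower, with a median of -0.03. The genes higher in G1/S cells were Timeless at 19.9 against 8.50 CPM, Cdca7 at 18.1 against 8.68, Dtl at 50.9 against 30.9 and Rfc3 at 22.2 against 14.5. The lower genes were Pclaf, a Pcna-binding factor, at 29.3 against 153 CPM, Prim1 at 6.44 against 14.7, Dbf4 at 9.95 against 18.2, Clspn at 10.5 against 18.3, Lig1 at 17.6 against 29.8 and Rfc4 at 14.0 against 21.3. Most of these levels rest on few UMIs in G1/S cells, where 20 CPM is about 34 UMIs. Rfc3 and Rfc4 just passed 1.5-fold, and the comparison is reported at the main setting only.

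A second list of 60 G2 and mitosis genes that the rule did not name had 43 at the level. None was higher than in G2/M cells by 1.5-fold and 40 were lower, with a median of -1.79. Cdca3 stood at 6.44 against 84.0 CPM, the centromere histone gene Cenpa at 15.8 against 115, and Stmn1, a microtubule destabiliser, at 37.5 against 126. Against other cells the same list gave 25 higher and 0 lower, where all genes gave 10.6% and 3.73%. Its median was 0.97, and over the other settings 20 to 37 were higher and 0 to 2 lower. Counts under 3 entered these ratios at 3 UMIs, which is 1.76 CPM in G1/S cells and 0.18 in other cells. A gene with fewer UMIs in G1/S cells can thus count as higher. At any level 50 of the 60 genes were above other cells and 10 below. The list summed to 1535 against 1130 CPM, a ratio of 1.36 (1.30 to 1.41). Among its members of at least 20 CPM the highest ratios belonged to Hmgb2, a chromatin protein, at 81.4 CPM against 24.4, and to Hjurp, which loads Cenpa onto centromeres, at 70.8 against 24.2. Cenpa itself was within 1.5-fold of other cells, at 15.8 and 17.8 CPM.

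Levels were also read by the number of G2/M genes detected over the whole library. That number was used by the rule and is not a measured position in the cycle. In cells with 0, 1, 2, 3 to 5, 6 to 10 and 11 to 19 of them, the 51 S phase genes stood at 312, 352, 407, 692, 1395 and 1337 CPM. Cdt1 stood at 5.03, 7.98, 7.75, 19.5, 20.4 and 11.8 CPM, and Ung at 7.82, 8.82, 11.6, 22.4, 34.5 and 11.4. Both had a lower level in the last group than in the one before it. Pclaf stood at 4.37, 5.74, 12.9, 36.4, 192 and 231 CPM, and Rrm2 at 4.37, 5.46, 8.004, 26.1, 103 and 108, with no such drop. The marker share of the G1/S cells was reached by 209 of the 393 G2/M cells (53.2%), where the S phase genes summed to 1754 CPM against 453 in the remaining G2/M cells. Median UMIs in the 6 groups by number of G2/M genes ran from 20507 to 28438. A deeper cell thus had more chance to show a G2/M gene, and the part of depth in these levels was not tested.

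G1/S cells differed among themselves. The 40 with the highest marker share held the S phase genes at 1416 CPM and the other 40 at 675, with E2f1 at 67.9 and 24.1 CPM and Pclaf at 54.1 and 7.66. Median UMIs of these groups were 18506 and 20563. In G1/S cells with 0, 1 and 2 G2/M genes, the S phase genes stood at 794 (718 to 876), 1036 (963 to 1114) and 1224 CPM (1128 to 1325). Pclaf stood at 14.0, 25.2 and 50.4 CPM and E2f1 at 24.0, 43.5 and 66.5. Their marker level, by which they were chosen, was 464, 579 and 659 CPM. Other cells with 0, 1 and 2 G2/M genes had the S phase genes at 278, 276 and 288 CPM, with marker levels of 111, 118 and 114.

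Across deciles of the 798 ranked cells, from the G1/S cells downward, the S phase genes stood at 1020, 449, 278, 302, 273, 279, 240, 243, 226 and 228 CPM. The decile after the G1/S cells was also above those after it, which lay between 226 and 302 CPM. Hepatocyte secreted proteins stood at 59526 CPM in the G1/S cells, 65286 in the next decile and between 62052 and 87906 in the others. The deciles also take cells by counting noise of the markers, most of all where a cell has few UMIs.

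**Figure D4:**
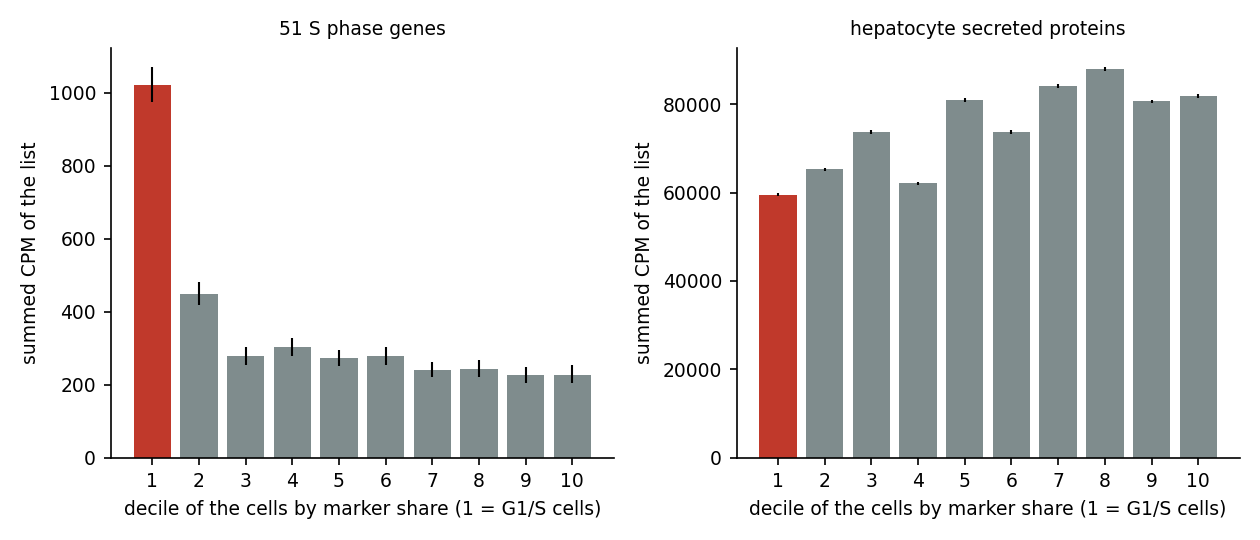
Summed CPM of the 51 S phase genes (left) and of 26 hepatocyte secreted proteins (right) in deciles of the 798 cells ranked by marker share, with exact 95% Poisson intervals. The first bar, in red, holds the 80 G1/S cells. It is the highest on the left at 1020 CPM and the lowest on the right at 59526 CPM.

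Over the transcriptome, 4491 genes outside the rule reached 20 CPM in the higher of the classes. Of these, 327 were at least 1.5-fold higher in G1/S than in other cells (7.28%) and 59 lower (1.31%), with a median log2 ratio of 0.11. With all ratios scaled to the median gene, a shift of 0.10, the split was 194 higher and 104 lower. A gene above the level in G1/S cells alone had to differ, and the 80 cells hold fewer UMIs than the 718, so these counts describe the libraries and are not a rate of true differences. Among genes of at least 50 CPM not described above, the highest ratios belonged to Dek, a chromatin protein, at 87.79 against 33.996 CPM, and Cks1b, a partner of Skp2 and cyclin-dependent kinases, at 97.2 against 38.6. Prkar2a at 63.8 against 33.7 CPM, Naa50 at 95.4 against 52.0 and Pkig at 75.5 against 41.8 followed. Sprr1a, at 146 against 79.7 CPM, rested on few cells, since 17 of the 80 held it and 1 cell gave 74 of its 249 UMIs. Without that cell its log2 ratio was 0.39 in place of 0.87.

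Secreted hepatocyte proteins were lower as a group by a small margin. Of 25 genes at the level, 5 were at least 1.5-fold lower and 1 higher, where 3.73% of all genes were lower and 10.6% higher. The median log2 ratio was -0.26, and the list summed to 59526 CPM in G1/S, 76768 in other and 65597 in G2/M cells. Apoa1, the main protein of high-density lipoprotein, stood at 3667, 6789 and 4997 CPM, a log2 ratio over other cells of -0.89, and Apoc3 at 55.6, 117 and 99.2. Ahsg, which encodes fetuin-A, stood at 2731, 4768 and 3387 CPM (-0.80). Of the other lower genes, Apoa2 was at 21.1 against 38.6 CPM and Ambp at 1465 against 2217, and the higher one was Serpina6 at 88.4 against 50.9. The most abundant, transferrin (Trf), was within 1.5-fold at 13258 and 15308 CPM, as was Alb at 1324 and 1867. With thinning to 5000 UMIs 1 gene was lower in place of 5, and with the top 20% of cells 2 were.

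Xist alone was held by 27 of 80 G1/S and 177 of 718 other cells, and the level of this list differed between cells with Xist and cells with Y-linked UMIs. In cells with Xist alone the list stood at 38924 CPM in G1/S and 59261 in other cells, and in cells with Y-linked UMIs alone at 64913 and 84885. The difference was thus present in both kinds of cell. The S phase genes stood at 1066 and 319 CPM in cells with Xist alone and at 939 and 267 in cells with Y-linked UMIs alone. Apoa1 stood at 2164 and 5980 CPM in the first kind and at 3911 and 6670 in the second.

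The transcription factors that keep hepatocyte identity were within 1.5-fold of other cells, with 0 of 13 higher and 0 lower and a median of 0.04. Over all genes 10.6% were higher and 3.73% lower, which are also the shares for the metabolic enzymes below. With the top 5% of cells 1 was higher and 3 lower, and with cells of 1 or more G2/M genes dropped 3 were higher and 1 lower. Cebpb stood at 133 and 117 CPM, Prox1 at 29.9 and 23.3 and Foxa2 at 21.7 and 15.3. Metabolic enzymes had 0 higher and 2 lower of 14, with a median of 0.01 that ran from -0.23 to 0.16 over the other settings. Acute phase proteins had 0 higher and 3 lower of 16, against 10.6% and 3.73% of all genes, with a median of -0.23. Saa1 stood at 490 CPM in G1/S, 850 in other and 819 in G2/M cells, Lcn2 at 4081, 6160 and 5437, and Saa3 at 13342, 17418 and 17774. Saa1 and Saa2 are near-identical genes whose reads may be assigned to either. Among these proteins 7 were lower in cells with Xist alone, where the median was -0.49, 1 with the top 20% of cells and 0 with thinning.

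Targets of the signals in the medium mostly did not differ by the size rule. For the lists of this paragraph, the shares over all genes were 10.6% higher and 3.73% lower. Of 18 NF-kB targets, read out downstream of TNF, 1 was higher and 0 lower, with a median of 0.04, and the higher one, Tnf, stood at 29.3 and 18.4 CPM. ERK and immediate early targets, downstream of EGF and HGF, had 1 higher and 1 lower of 20 and a median of 0.05. Of 18 receptors, kinases and other mediators of these factors 1 was higher and 0 lower, with a median of 0.20, Rock2 at 27.5 against 16.3 CPM. Over the other settings 0 to 1 of the NF-kB targets were higher and 0 to 2 lower, 0 to 2 of the ERK targets either way, and 0 to 4 of the receptors and mediators were higher and 0 to 2 lower. Only 3 of 13 Wnt targets reached the level, and 0 of these differed, where up to 2 were higher under the other settings. Summed over all its genes the Wnt list was higher, at 62.6 against 39.7 CPM, a ratio of 1.58 (1.27 to 1.94) on 107 UMIs in G1/S cells. All 11 Wnt targets with UMIs were above other cells by some amount and 0 below. The share of all genes above by any amount is not given here. YAP and TEAD targets had 3 higher and 0 lower of 7, with a median of 0.52. With Dut left out of the ranking, or with scaling to the median gene, 1 was higher. With the top 5% of cells, and with cells of 1 or more G2/M genes dropped, 1 was higher and 1 lower, and in cells with Xist alone 3 were higher and 2 lower. The median ran from 0.22 to 0.53. Tead1 stood at 42.7 CPM in G1/S, 26.9 in other and 26.05 in G2/M cells, and Axl at 21.1, 8.01 and 4.34. Axl was found in 8 of 80 cells and had a log2 ratio of -1.92 in the top 5% of cells, against 1.40 in the whole class. Ribosome biogenesis genes had 6 higher and 0 lower of 29, with a median of 0.30 that ran from 0.08 to 0.37 over the other settings. Nolc1, a nucleolar chaperone, stood at 41.6 against 20.1 CPM and Dkc1, the pseudouridine synthase, at 28.7 against 14.3.

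**Figure D5:**
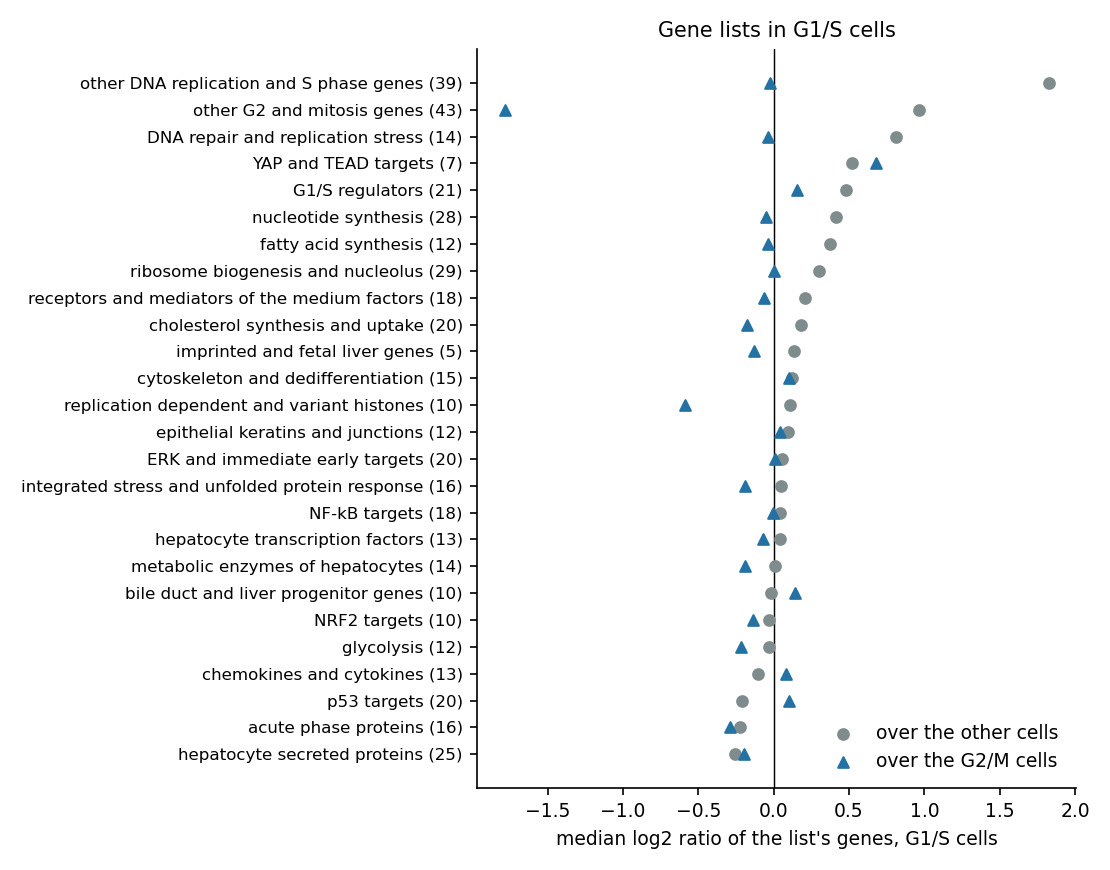
Median log2 ratio of the genes of each list, G1/S over other cells (grey circles) and over G2/M cells (blue triangles), for lists with at least 5 genes of 5 CPM or more over the library, whose number is in brackets. The replication list lies at 1.82 over other cells and at -0.02 over G2/M cells, the mitosis list at 0.97 and -1.79, and most others lie near 0.

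Among genes of at least 50 CPM in the higher class, the lowest ratios over other cells belonged to H19 and Ccl5. H19, an imprinted long noncoding RNA (chr7:142575529-142578143), stood at 31.6 CPM in G1/S, 139 in other and 228 in G2/M cells, a log2 ratio over other cells of -2.13. UMIs of H19 were found in 25 of 80 G1/S and 216 of 718 other cells. Across the other deciles its level ran from 23.8 to 350 CPM, so 2 of them, at 23.8 and 29.6, were below the G1/S cells, and the low level is not particular to the class. In cells with Xist alone it stood at 19.03 and 73.8 CPM and in cells with Y-linked UMIs alone at 12.7 and 200. Ccl5, a chemokine, stood at 17.6, 64.0 and 64.2 CPM, with UMIs in 11 of 80 and 122 of 718 cells. Its ratio turned when only cells with 0 G2/M genes were ranked (0.10) and with thinning (2.34), and its deciles ran from 6.29 to 302 CPM. Ly6d, at 62.6, 138 and 65.2 CPM, was next, followed by Apoc3, given above, and by Ces2e, a carboxylesterase, at 26.3, 54.9 and 38.9.

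The same rule picked 114 of the 1245 induction cells, from the 1137 with fewer than 3 G2/M genes. Those cells held a median of 5668 UMIs, 3 marker UMIs and 2 different markers, so the rule rests on far fewer counts there. In them the 51 S phase genes summed to 489 CPM (438 to 544) against 246 in the other induction cells, a ratio of 1.99, and to 1479 in induction cells with 3 or more G2/M genes. Of 28 S phase genes at the level 19 were higher and 1 lower, with a median log2 ratio of 0.93, where 10.2% of all 8681 genes were higher and 7.28% lower. Counts under 3 entered at 3 here as well. The picked cells hold 693208 UMIs against 7386490, so a gene with fewer UMIs than that in them can count as higher. At any level 43 of the 50 S phase genes with UMIs were above the other induction cells and 7 below. Ranked by odd and by even markers, the held-out markers were 2.07-fold and 2.50-fold higher in the top cells, against 3.25-fold and 4.57-fold in expansion medium. Hells stood at 18.8 and 4.47 CPM and Uhrf1 at 27.4 and 2.44.

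To set the media side by side at equal depth, each cell was thinned to 2000 UMIs, which left out 0 expansion and 14 induction cells. At least 2 of the 16 markers were then found in 149 of 1191 expansion cells, 12.5% (10.7 to 14.5%), and in 72 of 1231 induction cells, 5.85% (4.60 to 7.31%). Without thinning the shares were 76.6 and 23.1%. Among cells with fewer than 3 G2/M genes before thinning the thinned shares were 4.76% (3.39 to 6.48%) and 2.40% (1.59 to 3.48%), or 38 of the 149 expansion and 27 of the 72 induction cells. The 16 markers summed to 297 CPM (291 to 304) over all expansion cells and 196 (187 to 205) over all induction cells, and to 156 (150 to 162) and 112 (105 to 120) in cells with fewer than 3 G2/M genes. The limit of 3 G2/M genes was applied before thinning, at median UMIs of 23184 in expansion and 6765 in induction cells. A deeper cell had more chance to reach that limit, and the part of depth in the values under it was not tested. All values here compare 1 library with 1 other, and the medium cannot be told apart from the library.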

How the data were processed

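Transcripts of single hepatocytes in 3D culture were counted in 1 expansion and 1 induction library. The deposited files hold raw UMI counts per gene and barcode for 28692 genes, which the authors made with Cell Ranger 2.1.1 and mm10 according to their processing notes. Which annotation release and cell calling they used was not given in the sources used here. Reads of near-identical or overlapping genes may be assigned to either.

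Cells with at least 500 genes and at most 25% mitochondrial UMIs were kept, which left out 17 of 1208 expansion and 30 of 1275 induction barcodes (29545561 and 9305593 UMIs). Within a class, UMIs were added up over cells and scaled to a total of 1000000 (CPM). Levels carry exact Poisson intervals, ratios exact conditional binomial intervals and shares Clopper-Pearson intervals, all at 95%. A count under 3 entered a ratio in a list at 3. In the expansion library 3 UMIs are 1.76 CPM in G1/S, 0.18 in other and 0.28 in G2/M cells. A gene of few UMIs is thus counted more readily as higher in G1/S cells than as lower. Genes were counted at a ratio of at least 1.5, at 20 CPM in the higher class or, for lists, at 5 CPM over all cells of the library, a filter chosen after the data had been seen. No p-value was computed. Pclaf appears in the files under an older name.

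The members and the 34 lists were chosen with earlier results of these data known. Named by rule were the genes of the ranking, the members of the replication and G1/S regulator lists, in each other list the gene with the highest level and the 2 with the largest ratios, and the 12 largest ratios per direction among genes of at least 50 CPM. Apoa2, Ambp, Serpina6, Alb, Saa2 and Tk1 were also named after their values had been seen. Some genes that met the rule are left out of the text.

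Promoters and their start sites come from RefSeq on GRCm38.p6, and gene coordinates from GENCODE M21 on GRCm38 by gene ID (28339 of 28692 found). Thinning drew UMIs without replacement with a fixed seed. The ratio code was tested on simulated data. Python 3.11.15, numpy 2.4.6, scipy 1.17.1, pandas 2.3.3, scanpy 1.11.5 (Scrublet) and matplotlib 3.10.9 were used. The alternatives changed the cell filter, the share of cells taken, the G2/M limit, the marker list, the scaling, the weight of cells, the depth, doublets, the sex of the cells and the size rule; leaving out the G1/S cell with the most UMIs of a gene was added after the data had been seen.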

Additional observations from a re-analysis of the deposited data

How the results depend on the processing

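No paired analysis was possible because each medium has 1 library and the labels carry no replicate numbers. The S phase list stayed above other cells in all 14 alternatives, at a log2 ratio of 1.38 to 2.24 (1.87 as reported). With the top 5% of cells it was 2.24, with 601 genes higher and 177 lower. With the top 20% it was 1.49, with 112 and 22. It was 1.71 with cells of 2 or more G2/M genes dropped, and 1.38 with cells of 1 or more dropped, where 136 genes were lower. Scaled to the median gene it was 1.77, with 194 higher and 104 lower. Without mitochondrial and ribosomal protein genes 633 were higher and 107 lower, since more genes reach 20 CPM (6144 against 4491). Thinned to 5000 UMIs, where fewer cells reach 3 G2/M genes and 100 cells are taken, it was 2.20, with 809 and 243. In cells with Xist alone (20 taken) it was 1.99, with 995 and 304, and in cells with Y-linked UMIs alone 1.71, with 168 lower. A ratio of at least 2 gave 76 and 12 genes, a level of 50 CPM 55 and 22, and one of 5 CPM 1173 and 328. The held-out log2 ratios of 1.70 (odd places) and 2.19 (even places) were 1.99 and 2.51 with the top 5% of cells, 1.24 and 1.77 with the top 20%, 1.47 and 1.97 with 2 or more G2/M genes dropped, 1.05 and 1.31 with 1 or more dropped, and 2.13 and 2.55 thinned. At least 2 markers were found in 29.1% of expansion and 16.8% of induction cells thinned to 5000 UMIs, and at least 3 in 5.29% and 2.03% at 2000 UMIs. For these results, where no value is given, a ratio or share moved by less than its interval and a count by less than 1.5 times. The comparison with G2/M cells is reported at the main setting only. Counts of the smaller gene lists moved by more under several settings, as given beside them. The cause of the moves was not tested. The G1/S cells hold few UMIs of most genes, so a level near 20 CPM rests on about 34 UMIs and smaller differences were not detectable.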
